A study of Mus musculus with 10 samples.

Results

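The fibrillar collagens are the collagen chains that build the banded fibrils of heart matrix, skin, tendon and cartilage. The 9 genes described here (Col1a1, Col1a2, Col2a1, Col3a1, Col5a1, Col5a2, Col5a3, Col11a1 and Col27a1) were taken by symbol from the 23337 genes of a left atrial read count table. Each of the 9 symbols matched 1 gene. The study asked which genes change their expression in the adult atrium once Tbx5, which encodes a cardiac T-box factor, is removed. It compared 4 libraries labelled control with 6 libraries labelled Tbx5 knockout. The controls (labelled Tbx5 +/+; males M1 and M2, females F1 and F2) are labelled wild type, and the labels do not say whether they carried the Cre allele or were given tamoxifen. The knockouts (labelled Tbx5-/-; females F1 to F3, males M1 to M3) carried a Cre recombinase that tamoxifen activates and that the R26 promoter, active in all tissues, expresses, so exon 3 of Tbx5 could be removed in every cell type and not in cardiomyocytes alone. Tamoxifen was given on 3 days at 0.167 mg per day, and tissue was taken 1 week later. All animals shared a mixed C57B6 and 129 background and an age labelled as 8 to 10 weeks, which the extraction protocol gives as 6 to 8 weeks. Titles number the libraries as single mice, but no label states that each is a separate animal. The p-values therefore measure the spread between these libraries, which could be partly technical.

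As background, each collagen molecule is a triple helix of 3 chains. Type I collagen joins Col1a1 and Col1a2 chains with Col1a1 in excess, and type III is made of Col3a1 alone. Type V collagen joins Col5a1 with Col5a2, and in some tissues with Col5a3. It is a minor part of the fibril and is known to start fibrils and limit their width. Types II and XI (Col2a1, Col11a1) are best known from cartilage, and type XXVII (Col27a1) from developing cartilage. In the heart, fibroblasts are the main source of types I, III and V.

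The reads assigned to genes ran from 5701670 to 7697556 per control library and from 5789632 to 7355782 per knockout library, so a chain with a few reads per library carries a large counting error. Tbx5 itself, read over the whole gene, was higher in all 6 libraries labelled knockout than in any control (mean 939 normalized counts in controls and 1952 in knockouts; log2 difference 1.05, exact two-sided permutation p = 0.00476). Only exon 3 was to be removed, so a count over the whole gene does not measure that loss and cannot check the knockout label. The cause of the higher count was not tested. Every direction below therefore rests on the labels, and "knockout" means "labelled knockout" throughout. Of 13191 genes that entered the test, 5622 (42.6%) passed an adjusted p of 0.05, so a change in a gene is common in these data. Between 19.3% and 20.9% of control reads came from the 10 most abundant genes, against 10.9% to 14.4% of knockout reads. The atrial label fits the markers, since Nppa and Myl7, both typical of atrial cardiomyocytes, averaged 213896 and 61119 normalized counts in controls. In the knockouts they averaged 104127 and 3793.

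The 9 genes lie on 8 chromosomes of the mouse genome (mm10, the same assembly as GRCm38). Col1a1 is at chr11:94936224-94953042 and Col1a2 at chr6:4504814-4541544, both on the plus strand. The only neighbours are Col3a1 (chr1:45311538-45349706, plus strand) and Col5a2 (chr1:45374321-45503282, minus strand), whose 3′ ends face each other across 24614 bp. Col5a1 is at chr2:27886425-28039514 on the plus strand, and Col5a3 at chr9:20770050-20815067 on the minus strand. Col2a1 is at chr15:97975602-98004695 (minus strand), Col11a1 at chr3:114030540-114220718 (plus strand) and Col27a1 at chr4:63214004-63334991 (plus strand). Their principal transcripts have 51 to 67 exons and are 5104 to 8406 bases long. GC content over exons splits the chains: it is 46.8% in Col1a2, Col3a1 and Col5a2 and 46.9% in Col11a1, but 57.7% to 60.7% in the other 5.

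Because several chains moved together and others did not, the stretches before their start sites are shown for 4 chains that represent both cases. Col1a2 and Col3a1 had nearly equal changes, while Col5a1 and Col5a3, chains of 1 collagen type, had unequal ones. Each sequence is the 250 bases before the RefSeq start site (GRCm38.p6), 5′ to 3′ on the strand of the gene. Capitals mark matches, on either strand, to 4 motifs: the CCAAT box, whose letters are its name, the GC box with the letters GGGCGG, the TATA box with the letters TATAAA, and the half-site of T-box factors with the letters GGTGTG.
Col1a2, chr6:4505368-4505617, plus strand: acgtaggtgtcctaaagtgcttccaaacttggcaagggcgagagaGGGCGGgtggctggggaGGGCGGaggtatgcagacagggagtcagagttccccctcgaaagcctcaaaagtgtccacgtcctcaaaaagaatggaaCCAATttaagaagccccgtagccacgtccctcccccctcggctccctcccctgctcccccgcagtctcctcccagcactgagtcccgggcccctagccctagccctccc
Col3a1, chr1:45311288-45311537, plus strand: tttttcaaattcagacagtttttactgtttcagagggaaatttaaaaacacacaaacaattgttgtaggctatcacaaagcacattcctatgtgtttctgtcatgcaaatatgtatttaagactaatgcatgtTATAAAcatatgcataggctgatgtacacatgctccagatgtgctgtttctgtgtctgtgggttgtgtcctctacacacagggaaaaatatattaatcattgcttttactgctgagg
Col5a1, chr2:27886175-27886424, plus strand: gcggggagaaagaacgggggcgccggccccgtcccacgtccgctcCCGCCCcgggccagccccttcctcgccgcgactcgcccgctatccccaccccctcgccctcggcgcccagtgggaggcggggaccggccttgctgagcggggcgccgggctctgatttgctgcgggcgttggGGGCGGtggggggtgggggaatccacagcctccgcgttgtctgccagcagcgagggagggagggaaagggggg
Col5a3, chr9:20815068-20815317, minus strand: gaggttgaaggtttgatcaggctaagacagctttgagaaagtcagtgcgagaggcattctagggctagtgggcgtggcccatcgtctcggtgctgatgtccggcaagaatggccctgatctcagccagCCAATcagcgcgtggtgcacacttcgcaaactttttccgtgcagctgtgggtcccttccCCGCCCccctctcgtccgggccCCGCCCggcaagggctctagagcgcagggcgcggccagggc
The 4 windows share no motif that all of them hold. Col1a2 has CCAAT at -109 and GGGCGG at -205 and -188, counted from the RefSeq start site. That site lies inside the gene span given above, which begins at 4504814, so this window begins and ends within the span. Col3a1 has no GC box or CCAAT box and a single TATAAA at -117, and only 35.2% of its bases are G or C. Col5a1 has GC boxes at -205 and -73 in a window of 76.4% G and C. Col5a3 has CCAAT at -122 and GC boxes at -63 and -41, with 62.8% G and C, where the median over 32851 mouse windows of the same length is 52.4%. These letters are common, since 33.8% of all windows hold a CCAAT box, 32.7% a GC box, 12.4% a TATA box and 16.3% the T-box half-site. The T-box half-site was not found in these 4 windows or in those of Col11a1 and Col27a1, which says nothing about binding of Tbx5. A match is a description of the letters and not a binding site.

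All 7 chains with enough reads to test rose in the knockouts. They were the 2 chains of type I collagen, the chain of type III, the 3 chains of type V and Col27a1. The rises ran from 1.70-fold for Col5a3 to 5.73-fold for Col5a2, and 6 of the 7 chains had every knockout library above every control library. Over all tested genes, 20.8% passed as higher and 16.3% had every knockout library above every control library. Col27a1 is in both counts of chains. Only 3 of the 4 controls had enough reads of it for the test's filter, so it entered through the knockouts. Col2a1 and Col11a1 had too few reads to test. Together the 9 genes held 0.259% to 0.341% of the assigned control reads and 0.761% to 1.45% of those of the knockouts. These are whole pieces of tissue, in which more cells of a type and more RNA per cell cannot be told apart.

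**Figure D1:**
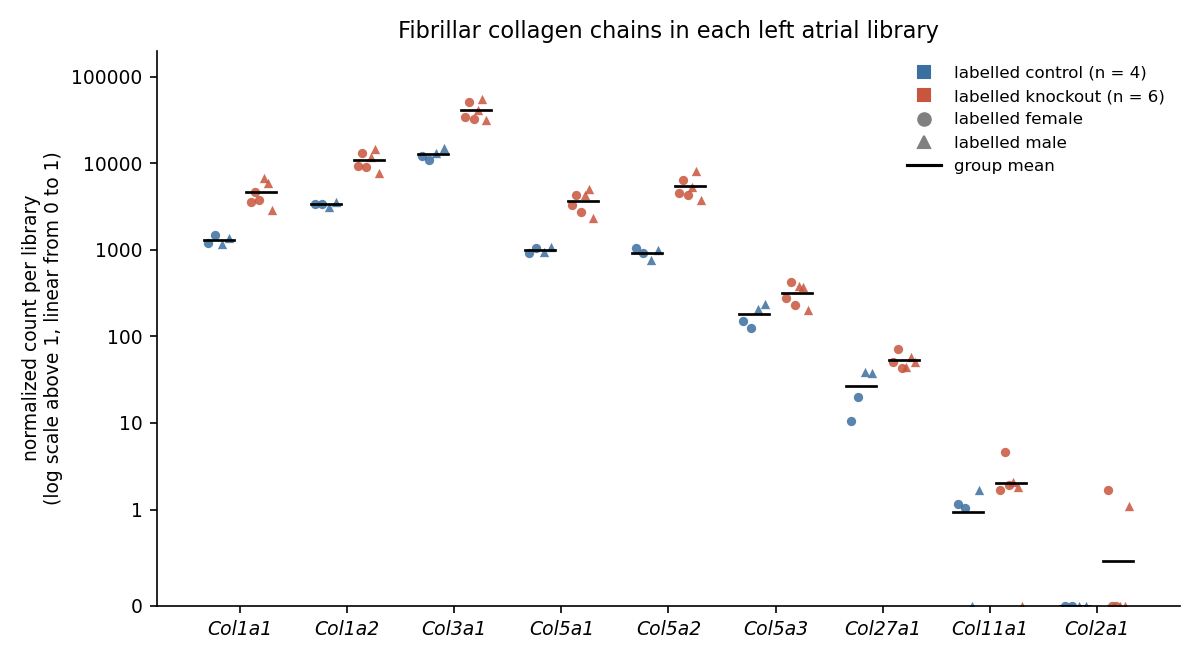
Normalized read count of each of the 9 chains (y axis, log scale above 1 and linear from 0 to 1) in the 4 control (blue) and 6 knockout (red) libraries, with circles for females, triangles for males and a bar at the group mean. Knockout points lie above all control points for Col1a1, Col1a2, Col3a1, Col5a1, Col5a2 and Col27a1, overlap them for Col5a3, and sit near 0 for Col11a1 and Col2a1.

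The type I chains came first in the controls after Col3a1. Col1a1 had 1211 normalized counts in control F1, 1491 in F2, 1170 in M1 and 1363 in M2. In the knockouts its lowest value was 2902 (M3), its median 4234 and its highest 6691 (M1). The lowest knockout library was thus 1.95 times the highest control, with no overlap. Its log2 fold change was 1.79 ± 0.21 (SE), a 3.45-fold rise (edgeR quasi-likelihood test, Benjamini-Hochberg adjusted p = 1.91e-05). The second type I chain, Col1a2, was the most even chain among the controls, at 3372, 3352, 3148 and 3534 normalized counts in F1, F2, M1 and M2. Its knockout values ran from 7633 (M3) through a median of 10651 to 14491 (M2), all above the controls. It rose 3.21-fold, a log2 fold change of 1.68 ± 0.17 (edgeR adjusted p = 5.69e-06).

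Type III collagen, the thin-fibril collagen of stretchable tissue, had the most reads of the family. Col3a1 had 12203 normalized counts in control F1, 10792 in F2, 13137 in M1 and 14983 in M2. Among the knockouts it ran from 31794 (M3) through a median of 37974 to 55789 (M2). The groups did not overlap, and the lowest knockout was 2.12 times the highest control. The rise was 3.16-fold, a log2 fold change of 1.66 ± 0.18 (edgeR adjusted p = 1.02e-05). Across Col3a1, Col1a2, Col1a1 and Col5a1 the log2 fold changes ran from 1.66 to 1.85, with standard errors of 0.17 to 0.21.

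The chains of type V collagen moved by unequal amounts. Col5a1, the chain present in the known forms of type V, had 925, 1038, 954 and 1069 normalized counts in control F1, F2, M1 and M2. It ran from 2330 (M3) through 3769 to 5022 (M2) in the knockouts, all above the controls, and its log2 fold change was 1.85 ± 0.19 (3.60-fold; edgeR adjusted p = 8.75e-06). Its partner chain Col5a2 started at a similar count and rose further. Col5a2 had 1046 normalized counts in control F1, 924 in F2, 760 in M1 and 990 in M2. In the knockouts it had 3744 at the lowest (M3), 4990 at the median and 8091 at the highest (M2). The lowest knockout was 3.58 times the highest control, the widest gap of the 7 chains. Its log2 fold change of 2.52 ± 0.20 was a 5.73-fold rise (edgeR adjusted p = 1.15e-06), and 165 of the 13191 tested genes (1.25%) had a higher one.

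Col5a3, the chain of type V known from fewer tissues, behaved differently in 2 respects. It was present at 152 normalized counts in control F1, 127 in F2, 209 in M1 and 237 in M2, and at 201 (M3), 327 and 421 (F2) as the lowest, median and highest knockout values. The groups overlapped, because knockout M3 lay below both male controls and knockout F3 (231) below control M2. The log2 fold change was 0.77 ± 0.22, a 1.70-fold rise (edgeR adjusted p = 0.0122). In a fit of group and sex to all 10 libraries, it was 1.13 ± 0.29 within females (edgeR adjusted p = 0.0112). Within males of the same fit it was 0.49 ± 0.28, which did not pass (edgeR adjusted p = 0.211).

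Col27a1 was a low chain with a low-count margin. Its normalized counts were 10.4 in control F1, 19.9 in F2, 39.0 in M1 and 38.1 in M2, and the first of these rested on 9 reads. A gene entered the test with at least 1.52 CPM (the read count scaled to a common total) in 4 libraries. For this chain 3 of the 4 controls reached that level, so it entered the test through the knockouts. In the knockouts its normalized counts ran from 43.6 (F3) through 50.2 to 71.6 (F2). The groups did not overlap, but the lowest knockout was only 1.12 times the highest control. The log2 fold change was 0.94 ± 0.29, a 1.92-fold difference (edgeR adjusted p = 0.0167). It did not pass without control F2 (0.84, edgeR adjusted p = 0.0533) or without control F1 and knockout M3 together (0.70, edgeR adjusted p = 0.0521), and so 6 of 7 chains passed in each of these fits. The 2 female controls were low and the 2 male controls high. In females the mean went from 15.1 to 55.1 normalized counts (log2 fold change 1.81 ± 0.33, edgeR adjusted p = 0.0014), and in males from 38.6 to 50.8 (0.38 ± 0.28, edgeR adjusted p = 0.347).

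The cartilage chains were close to absent. Col11a1 had 17 reads in all, 4 in the controls and 13 in the knockouts, with at most 5 in 1 library (knockout F2) and 0 in control M1 and knockout M3. Col2a1 had 3 reads in all, 2 in knockout F1 and 1 in knockout M3, and 0 in the other 8 libraries. The 0 reads of the 4 controls allow up to 3 reads among their 25903344 assigned reads, counting error only. A change in either gene was not detectable at this depth. The authors' deposited table lists log2 fold changes of 0.45 (adjusted p = 0.494) for Col11a1 and 0.26 for Col2a1, the latter with no adjusted p. For the 7 tested chains the authors' deposited table gives log2 fold changes of 0.75 (Col5a3) to 2.44 (Col5a2), in the order Col5a3, Col27a1, Col3a1, Col1a2, Col1a1, Col5a1, Col5a2, which is the order found here.

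**Figure D2:**
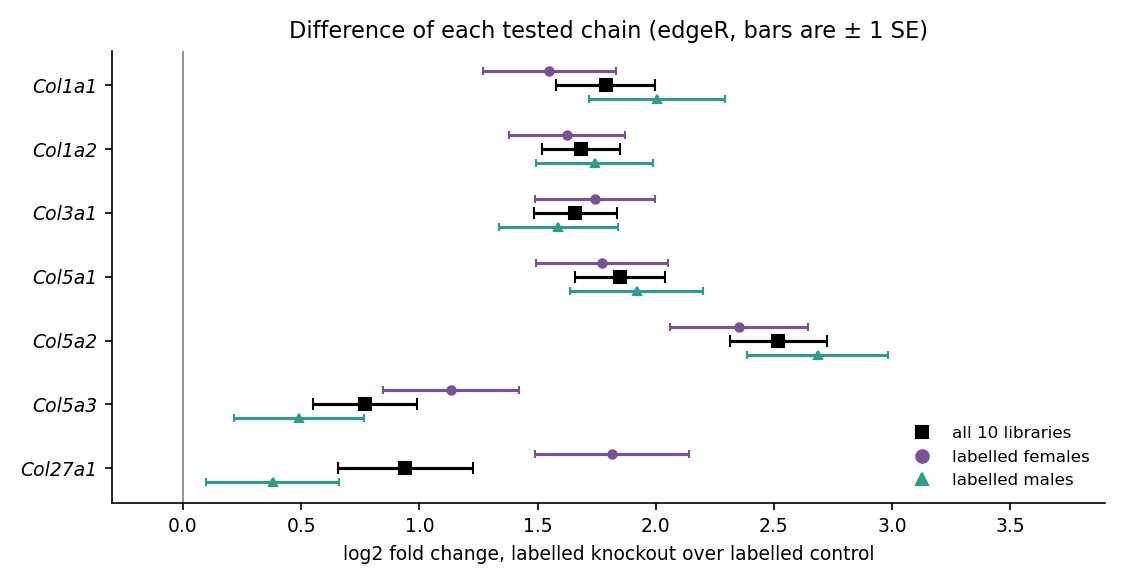
Log2 fold change, knockout over control, of the 7 tested chains (edgeR; bars are ± 1 SE) over all 10 libraries (black squares), in females (purple circles) and in males (green triangles). Col5a2 has the highest value, 2.52, and Col5a3 and Col27a1 have the lowest, 0.77 and 0.94, with the widest distance between the sexes.

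The rise was then compared between the sexes. Within females, all 7 tested chains passed, and within males 5 did, where 13.5% and 12.8% of all tested genes passed as higher. Col5a3 and Col27a1 were those that did not pass in males. None of the 7 chains differed between the sexes by the interaction test at an adjusted p of 0.05 in edgeR, DESeq2 or limma-voom, a test that 27 of 13191 genes (0.205%) passed in edgeR. At an unadjusted p of 0.05 in edgeR, 1 chain passed against 7.15% of all genes. It was Col27a1, whose male minus female difference was -1.44 ± 0.43 (edgeR adjusted p = 0.367). For the 5 chains of highest count the log2 fold changes ran from 1.55 (Col1a1) to 2.35 (Col5a2) in females. In males they ran from 1.59 (Col3a1) to 2.69 (Col5a2). Col1a1 had 2.01 in males, and Col3a1 had 1.74 in females. The male minus female difference was 0.46 ± 0.38 for Col1a1, 0.33 ± 0.38 for Col5a2 and -0.16 ± 0.34 for Col3a1. With 2 control libraries per sex, the interaction has wide errors, 0.33 to 0.43 on the log2 scale, so the sexes are not shown to be alike either.

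The spread within the knockout group was shared by the chains. Knockout M3 was the lowest of the 6 for Col1a1, Col1a2, Col3a1, Col5a1, Col5a2 and Col5a3. Knockout M2 was the highest for Col1a2, Col3a1, Col5a1 and Col5a2, while Col1a1 was highest in knockout M1 and Col5a3 and Col27a1 in knockout F2. The coefficient of variation over the 6 knockouts was 24.3% to 31.9% for the 6 chains of types I, III and V. In the 4 controls it was 4.72% for Col1a2, 6.79% for Col5a1 and 28.1% for Col5a3. GC content was read differently in single libraries of both groups. As log2 deviations from the group mean, genes of high GC content (over 54.8%) minus those of low GC content (under 45.6%) gave -0.27 in knockout M3, -0.16 in control F1, 0.16 in control F2 and 0.16 in knockout M1, with the other 6 libraries between these. Its part in the order of these libraries was not tested.

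Levels of different chains were compared per kilobase of principal transcript, without correction for GC content, which differs between the chains. In the controls the order was Col3a1 (2297 ± 316 normalized counts per kilobase, SD, n = 4), Col1a2 (627 ± 29.6) and Col1a1 (221 ± 24.8), with no overlap between neighbours. Then came Col5a2 (140 ± 18.6) and Col5a1 (119 ± 8.05), whose ranges overlapped, then Col5a3 (29.6 ± 8.32) and Col27a1 (3.53 ± 1.85). Col11a1 and Col2a1 were last at 0.127 and 0. In the knockouts, Col3a1 (7391 ± 1808, SD, n = 6) and Col1a2 (2050 ± 499) again led without overlap. The next place changed hands: Col5a2 averaged 820 ± 244 normalized counts per kilobase beside 777 ± 248 for Col1a1, with overlapping ranges, and stood above Col1a1 in 5 of the 6 libraries. Col5a1 followed at 435 ± 125, overlapping the range of Col1a1 but below it in all 6 libraries. Col5a3 (51.5 ± 14.7) and Col27a1 (6.96 ± 1.37) kept their places.

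As shares of the summed level per kilobase of the 9 chains, 2 chains had groups that did not overlap in the direction of the ratios below. Col5a2 made up 3.36% to 4.75% of the sum in controls and 6.64% to 7.81% in knockouts. Col5a3 made up 0.666% to 1.00% in controls and 0.385% to 0.511% in knockouts. The mean share of Col3a1 was 66.7% in controls and 64.2% in knockouts, and that of Col1a2 was 18.3% and 17.8%. Col1a1 held 6.48% and 6.71%, and Col5a1 3.47% and 3.74%. These 4 shares overlapped between the groups and are given as descriptions, with no test.

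**Figure D3:**
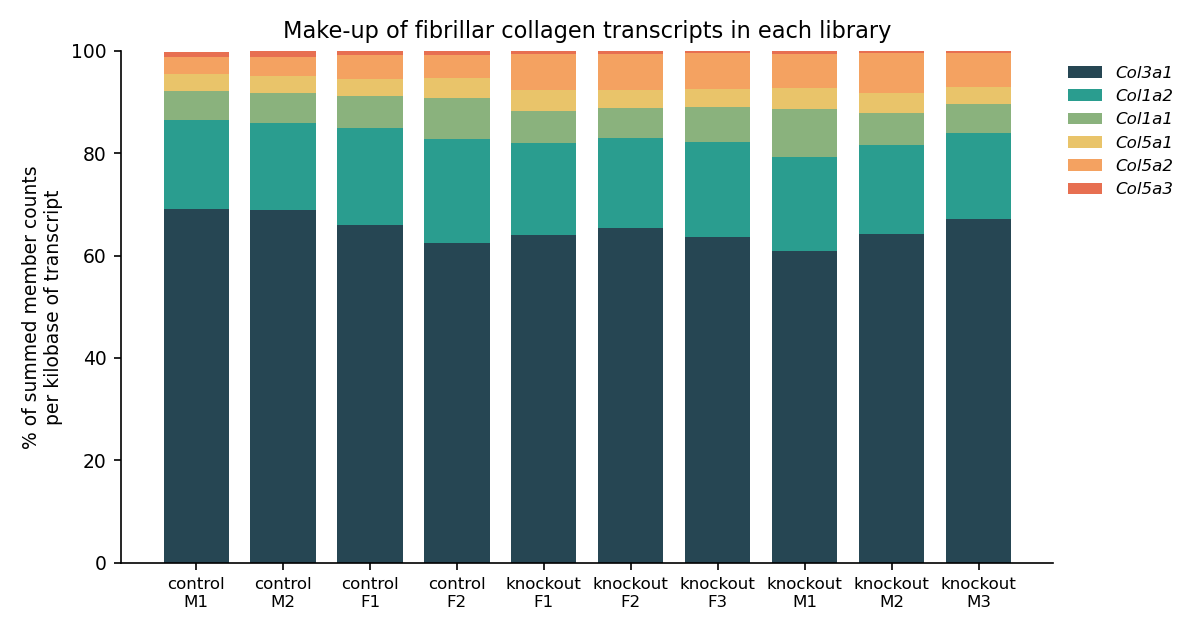
Make-up of the fibrillar chains in each library, as the percent of the summed member counts per kilobase of principal transcript (y axis), stacked from Col3a1 at the bottom to Col5a3 at the top. The Col5a2 band is wider in each of the 6 knockout libraries (6.64% to 7.81%) than in any control (3.36% to 4.75%), and the Col5a3 band at the top is thinner.

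Ratios of the read counts of 2 chains within a library need no scaling between libraries, and they were used to ask whether the chains kept their proportions. Of 13 ratios listed, 8 had at least 10 reads of both chains in every library and were tested, with adjustment over these 8. With 210 ways to split the 10 libraries, the smallest exact p is 0.00476. The ratios within types I and III did not pass, and the ratios with Col5a2 or Col5a3 did.

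The type I pair, Col1a1 over Col1a2, was 0.359, 0.445, 0.372 and 0.386 in control F1, F2, M1 and M2. In the knockouts it was lowest at 0.357 (F2), had a median of 0.399 and was highest at 0.558 (M1), the only knockout above control F2. The mean log2 difference was 0.09 (95% interval -0.19 to 0.38, exact two-sided permutation p = 0.61, adjusted p = 0.697). The interval leaves room for a shift of either sign, and the value was -0.22 (exact permutation, adjusted p = 0.107) when counts were divided by the GC and length curve of each library. Col3a1 over Col1a1 was 10.1, 7.24, 11.2 and 10.99 in control F1, F2, M1 and M2, and ran from 6.19 (M1) through 9.46 to 10.96 (M3) in the knockouts. Its log2 difference was -0.10 (95% interval -0.53 to 0.34, exact p = 0.605, adjusted p = 0.697), and 0.13 with the GC and length curves. Without knockout M1, the differences were -0.000603 for Col1a1 over Col1a2 and 0.01 for Col3a1 over Col1a1.

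Col3a1 over Col1a2, a pair of nearly equal GC content, had the narrowest interval of the 8. It was 3.62, 3.22, 4.17 and 4.24 in control F1, F2, M1 and M2, and 3.45 (M1), 3.77 and 4.17 (M3) as the lowest, median and highest in the knockouts. The log2 difference was -0.01 (95% interval -0.21 to 0.21, exact two-sided permutation p = 0.876), so a change of more than about 0.21 on the log2 scale lies outside the interval. Col5a1 over Col1a1 compares type V with type I. It was 0.764, 0.696, 0.816 and 0.784 in control F1, F2, M1 and M2, and 0.648 (M1) to 0.909 (F2) in the knockouts. The ranges overlapped, and the log2 difference was 0.06 (95% interval -0.20 to 0.31, exact permutation p = 0.543).

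The type V pair shifted. Col5a1 over Col5a2 was 0.885 in control F1, 1.12 in F2, 1.26 in M1 and 1.08 in M2. In the knockouts it was 0.708, 0.660 and 0.632 in F1, F2 and F3, and 0.806, 0.621 and 0.622 in M1, M2 and M3. Every knockout library lay below every control, with control F1 and knockout M1 the closest. The log2 difference was -0.68 ± 0.12 (SE), so the ratio in the knockouts was 0.624 of that in the controls (95% interval on the log2 scale -0.93 to -0.41, exact two-sided permutation p = 0.00476, adjusted p = 0.0127). Col5a1 (57.7% GC) and Col5a2 (46.8% GC) differ in base composition. With the GC and length curves divided out, the log2 difference was -0.83 (exact permutation, adjusted p = 0.00952).

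Col5a2 also gained on the major chains. Col5a2 over Col3a1 compares neighbouring genes of equal GC content, and it was 0.0857, 0.0856, 0.0579 and 0.0661 in control F1, F2, M1 and M2. It was 0.133, 0.128 and 0.131 in knockout F1, F2 and F3 and 0.130, 0.145 and 0.118 in M1, M2 and M3, all above the controls. The log2 difference was 0.84 ± 0.15, a ratio 1.80 times that in controls (95% interval 0.61 to 1.13, exact two-sided permutation p = 0.00476, adjusted p = 0.0127). Col5a2 over Col1a1 was 0.863, 0.620, 0.650 and 0.726 in the controls and 1.27, 1.38, 1.14, 0.804, 1.36 and 1.29 in the knockouts, each in the order females then males. Knockout M1 lay below control F1, and the other 5 knockouts lay above all controls. The log2 difference was 0.75 ± 0.16, a ratio 1.68 times that in controls (95% interval 0.31 to 1.11, exact permutation p = 0.0143, adjusted p = 0.0286).

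Col5a3 lost share to Col5a1. Col5a3 over Col5a1 was 0.164, 0.122, 0.219 and 0.222 in control F1, F2, M1 and M2. In the knockouts it was nearly constant, at 0.0859, 0.0985 and 0.0853 in F1, F2 and F3 and 0.0880, 0.0746 and 0.0861 in M1, M2 and M3. Every knockout lay below every control, and the 2 male controls were above the 2 female controls. The log2 difference was -1.04 ± 0.21, so the ratio was 0.488 of that in controls (95% interval -1.36 to -0.63, exact two-sided permutation p = 0.00476, adjusted p = 0.0127). It was -0.66 in females and -1.42 in males, and whether the sexes differ in this ratio was not tested.

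**Figure D4:**
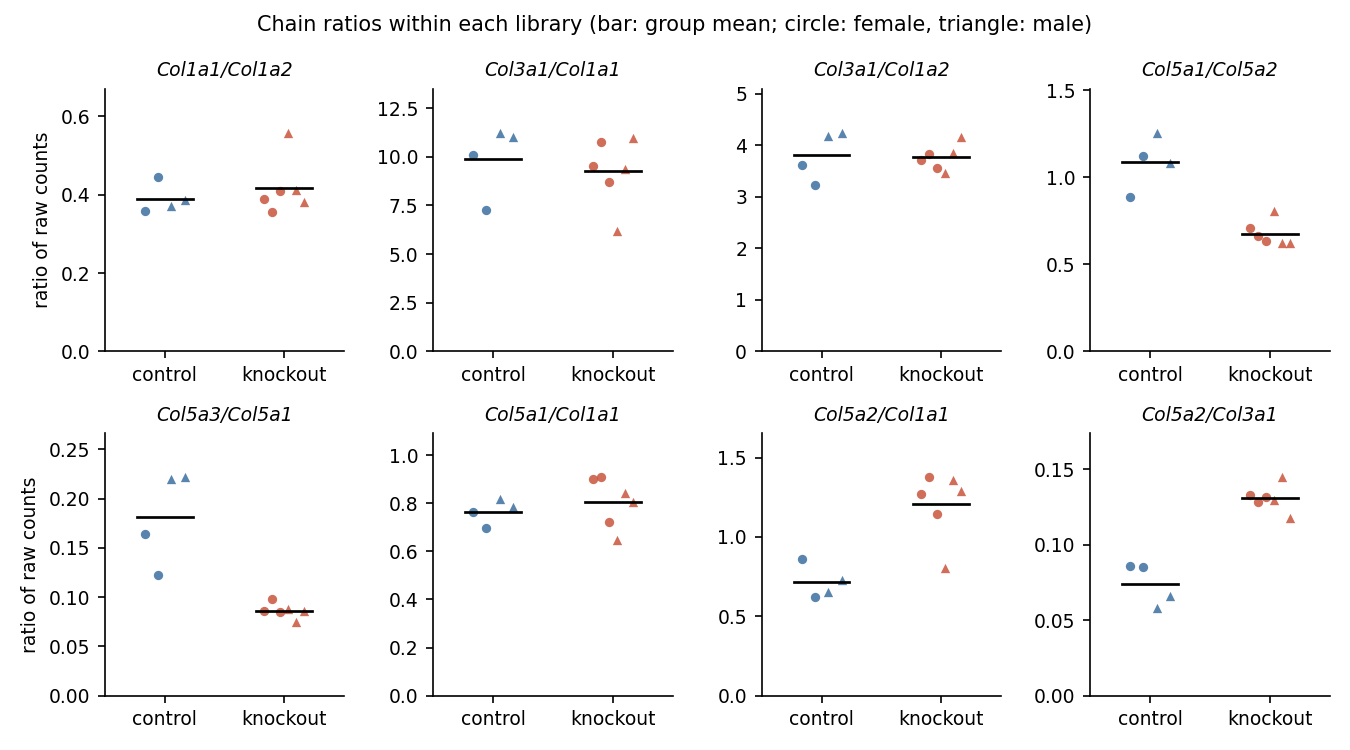
Ratio of the raw read counts of 2 chains within each library (y axis, from 0) for the 8 tested ratios, with circles for females, triangles for males and a bar at the group mean. Control and knockout points are separate for Col5a1/Col5a2, Col5a3/Col5a1 and Col5a2/Col3a1, and knockout M1 stands apart in Col1a1/Col1a2 (0.558) and Col5a2/Col1a1 (0.804).

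The 5 ratios that were not tested involve chains with few reads. Col27a1 over Col1a1 ran from 0.00860 to 0.0334 in controls and from 0.00667 to 0.0173 in knockouts, with overlap. Col11a1 over Col5a1 was at most 0.00158 in controls and 0.00109 in knockouts, and Col11a1 over Col1a1 at most 0.00124 and 0.000988. Col2a1 over Col1a1 was 0 in all controls and at most 0.000470 in the knockouts. No ratio of Col2a1 to Col11a1 is given, because each had libraries with no read.

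Other chains of the fibrillar family fell outside the list. Col24a1, a minor chain related to Col27a1, averaged 7.81 ± 3.17 normalized counts in controls and 24.4 ± 6.66 in knockouts (log2 fold change 1.58 ± 0.31, edgeR adjusted p = 0.00103). Its count was high enough for the filter in only 1 of the 4 controls, so it entered the test through the knockouts. Col11a2, a partner of Col11a1 in type XI collagen, averaged 29.8 ± 9.47 in controls and 16.8 ± 6.06 in knockouts (-0.84 ± 0.29, edgeR adjusted p = 0.0328). Its call was lost without any 1 of control M1, control M2, control F1, knockout F2, knockout M1 or knockout M2, with edgeR adjusted p from 0.0546 to 0.114 and log2 fold changes from -0.83 to -0.69. By sex it was -1.48 ± 0.36 in males (edgeR adjusted p = 0.00963) and -0.18 ± 0.37 in females, which did not pass (edgeR adjusted p = 0.744). The interaction with sex did not pass (edgeR adjusted p = 0.597).

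The genes whose profile over the 10 libraries was most like that of a chain were found by the root mean square distance between log2 levels, each set to its control mean, among 9637 genes. Closest to Col1a1 were Col5a1 (distance 0.15), Fn1 (fibronectin, 0.17), Col1a2 (0.19), Adamts2 (a procollagen N-proteinase, 0.21) and Sardh (sarcosine dehydrogenase, 0.23). Col3a1 was 15th and Col5a2 266th in that order. Closest to Col3a1 were Sparc (a collagen-binding glycoprotein, 0.11), Col16a1 (0.12), Fbln2 (a fibulin, 0.12), Col1a2 (0.12) and Fbn1 (a fibrillin, 0.14). Closest to Col5a2 were Bmp4 (a bone morphogenetic protein, 0.25), Lox (lysyl oxidase, 0.26), Kif20a (a mitotic kinesin, 0.28), Hist1h1d (a linker histone, 0.28) and Srpx2 (0.29). Hist1h1d belongs to a family of near-identical copies, so its count is uncertain. The other chains were farther from Col5a2, with Col5a1 45th at 0.55 and its genomic neighbour Col3a1 88th at 0.68. With levels set to the control mean, a gap in log2 fold change enters the distance in every knockout library. The order therefore largely follows the fold changes given above and adds little on shared variation between libraries.

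Genes that fold, cut, crosslink, bind or degrade fibrillar collagen were counted next, each list beside the background of 20.8% of tested genes higher, 21.8% lower and a median log2 fold change of -0.000915. These lists hold genes that act on many collagens. Of 20 genes of procollagen folding and hydroxylation, 13 rose and 2 fell, with a median of 0.58. One of the 13, P4ha3 (a further catalytic subunit of prolyl 4-hydroxylase), had 1.05 to 8.47 normalized counts in controls and 12.8 to 123 in knockouts, and entered the test through the knockouts alone. Leprel2, a prolyl hydroxylase of collagen, went from 189 ± 11.6 to 385 ± 62.8 normalized counts (log2 fold change 1.00, edgeR adjusted p = 2.79e-05). Plod2, which hydroxylates lysines of the telopeptides, had a log2 fold change of 0.78, the isomerase Ppib 0.76 and the galactosyltransferase Glt25d1 0.74 (edgeR adjusted p = 0.000185, 0.000117 and 7.02e-05). P4ha1, a catalytic subunit of prolyl 4-hydroxylase, fell by 0.52 and Mia3, needed to export procollagen, by 0.65 (edgeR adjusted p = 0.0195 and 0.00101). Without control F1 or without control F2, 1 gene of the list fell in place of 2.

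All 5 crosslinking enzymes of the lysyl oxidase family rose, with a median log2 fold change of 1.15. Lox averaged 126 ± 17.0 normalized counts in controls and 752 ± 335 in knockouts, or 2.55 ± 0.30 on the log2 scale (edgeR adjusted p = 1.87e-05), which is close to that of Col5a2. Loxl2 had 2.29, Loxl1 1.15 and Loxl3 1.06 (edgeR adjusted p = 8.75e-06, 0.000287 and 0.000477). Of 7 tested genes of propeptide cleavage out of 10, 3 rose and 1 fell (median 0.64). Adamts2, which removes the amino propeptide, had 1.89 ± 0.17, the enhancer Pcolce 0.81 and the carboxy proteinase Bmp1 0.64 (edgeR adjusted p = 2.27e-06, 0.000306 and 0.000892). Tll1, related to Bmp1, fell by 0.73 (edgeR adjusted p = 0.00132).

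Of 15 tested fibril assembly partners out of 16, 8 rose and 1 fell, with a median of 0.50. Col12a1, a collagen on the fibril surface, went from 31.9 ± 12.7 to 328 ± 104 normalized counts (log2 fold change 3.30, edgeR adjusted p = 2.08e-06). Postn (periostin) had 3.03, Fn1 1.87 and Sparc 1.60 (edgeR adjusted p = 1.15e-05, 1.18e-05 and 9.01e-06). Fmod, a proteoglycan that binds fibrils, fell by 0.45 (edgeR adjusted p = 0.0193), and this call was lost without control F1 or without control F2, whereas 3 genes of the list fell without knockout M1. Of 10 tested collagen receptors out of 11, 4 rose and 1 fell, and the median was -0.04. Mrc2, which takes up collagen into cells, had 1.09 and Lair1, an inhibitory receptor of leukocytes, 1.08 (edgeR adjusted p = 0.00019 and 0.0029). Itgb1 had 0.32 and Ddr1 0.40 (edgeR adjusted p = 0.0133 and 0.0228). Itga1 fell by 0.36 (edgeR adjusted p = 0.0371), and no receptor fell once control F1, M1 or M2 or knockout F2, F3, M1 or M2 was left out.

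Collagen-cleaving proteases were 7 tested out of 10, with 4 higher, 1 lower and a median of 0.40. Ctss, a cathepsin, went from 147 ± 48.7 to 531 ± 130 normalized counts (log2 fold change 1.82, edgeR adjusted p = 1.84e-05), and Mmp14 and Ctsk had 0.83 and 0.69 (edgeR adjusted p = 0.000846 and 0.00135). Mmp9, a gelatinase, fell from 53.5 ± 29.1 to 5.69 ± 2.48 normalized counts (-3.26, edgeR adjusted p = 5.4e-05), and entered the test through the controls, since 1 of 6 knockouts reached the filter's level. The 23 tested regulators of collagen transcription and translation, out of 25, split into 7 higher and 6 lower, with a median of 0.14. Sox9 had 1.69, Ctgf 1.17 and the ligand Tgfb2 1.14 (edgeR adjusted p = 2.57e-06, 0.00029 and 0.000179). Smad3, which carries signals of TGF-beta, fell by 0.69 (edgeR adjusted p = 5.64e-05). Nfyc, a subunit of the factor that binds the CCAAT box, fell by 0.46, and Sox5 and Sox6, partners of Sox9 in cartilage, by 0.63 and 0.47 (edgeR adjusted p = 0.00156, 0.00313 and 0.00441). Larp6, which binds type I collagen messenger RNA, fell by 0.90 and Smad2 by 0.34 (edgeR adjusted p = 0.0049 and 0.0141).

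Marker lists of the cell types that left atrial tissue can hold were summed as well, and some sums overlapped between the groups while others did not. The called counts of all marker lists stand beside the same background, 20.8% of tested genes higher and 21.8% lower. For separation upward, 16.3% of tested genes had every knockout library above every control library. That share is for single genes, and none is given for sums. The summed level of 15 fibroblast markers was 53092 to 56847 normalized counts in controls and 52980 to 68503 in knockouts, with overlap. Of these markers, 8 rose and 3 fell (Pdgfra, Gsn and Scara5). Gsn, the most abundant, went from 25594 to 16964 normalized counts, Dcn from 10258 to 12424 (edgeR adjusted p = 0.0952) and Vim from 3674 to 8291. The sum of 10 activated fibroblast markers was 1284 to 2510 in controls and 6855 to 18636 in knockouts, without overlap, and 9 of the 10 rose, all but Fap. Of the 9, Cthrc1 and Thbs4 reached the filter's level in 1 and 2 of the 4 controls, so they entered the test through the knockouts. Knockout M2, the highest library for 4 chains, was also the highest for this sum. Knockout M3, the lowest library for 6 chains, was not the lowest for it, at 9197 beside 6855 in F3 and 8606 in M1. Postn held most of this sum, with 6383 normalized counts in knockout M3 and 5015 in knockout M1. Among the single markers, knockout M3 was the lowest knockout for Acta2, Cthrc1, Fap, Cilp and Ltbp2. It was not the lowest for Postn, Tagln, Meox1, Thbs4 and Tnc.

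Macrophage markers summed to 4040 to 5588 normalized counts in controls and 8878 to 13233 in knockouts, and 10 of 10 rose. Markers of dividing cells summed to 111 to 333 and 1063 to 2886, and 10 of 10 rose. Only 3 of these 10 (Mki67, Top2a and Ccna2) reached the filter's level in all 4 controls, and the other 7 entered the test through the knockouts, 2 of them (Ccnb1 and Aurkb) with no control at that level. Endothelial sums were 13838 to 16015 and 19914 to 24353 (5 higher and 2 lower of 10). Vwf held the largest part of this sum and of its rise, from a mean of 4277 to 8625 normalized counts. Pecam1 went from 2735 to 2860 (edgeR adjusted p = 0.749) and Eng from 1818 to 3294 (edgeR adjusted p = 0.000517). Sums of smooth muscle and pericyte markers were 10774 to 11661 and 16026 to 18706 (5 higher, of which Cnn1 entered through the knockouts, and 1 lower of 10). Des held the largest part of this sum and most of its rise, from a mean of 6411 to 12293 normalized counts. Rgs5 went from 1473 to 1186 (edgeR adjusted p = 0.0814) and Mcam from 582 to 1159 (edgeR adjusted p = 0.000189). Cardiomyocyte sums were lower, at 636540 to 705253 in controls and 320803 to 492132 in knockouts, with 2 higher and 7 lower of 10. Nppa (mean 213896 to 104127 normalized counts) and Myl7 (61119 to 3793) held a large part of this fall. Myh6 went from 175000 to 138013, while Actc1, 1 of the 2 that rose, went from 40940 to 61502 (edgeR adjusted p = 0.00236). Epicardial sums (2911 to 3736 and 2909 to 4471; 1 of 8 higher) and those of tendon, valve and cartilage (727 to 1007 and 519 to 950) overlapped. Of the 15 markers of the last list, 9 had fewer than 10 reads in every library and Col9a1 had none. Schwann and nerve markers summed to 187 to 267 in controls and 114 to 190 in knockouts, with 1 higher and 3 lower of 6 tested out of 8. Some genes are in a marker list and in a list above (Postn, Fmod, Pcolce, Dcn, Lum, Ddr2, Fap, Sox9 and Scx). The part of these cell types in the rise of the chains was not tested.

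**Figure D5:**
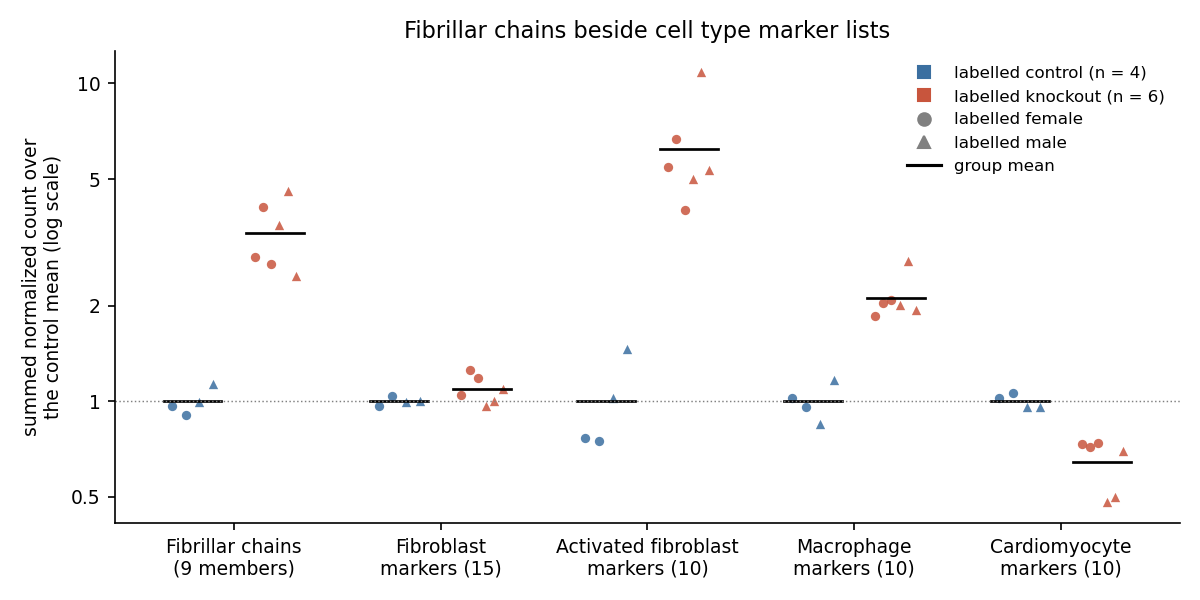
Summed normalized count in each library over the control mean (y axis, log scale) for the 9 fibrillar chains and for 4 marker lists, with circles for females, triangles for males and a bar at the group mean. The knockout points of the fibrillar chains, the activated fibroblast markers and the macrophage markers lie above all controls, those of the fibroblast markers overlap the controls, and those of the cardiomyocyte markers lie below.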

How the data were processed

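RNA of left atrial tissue from 10 libraries was sequenced as single-end reads of 51 bp after globin depletion, per the labels' protocols, which name both an mRNA kit and ribosomal depletion and in 1 place reads of 50 bp. Per the submitters' processing notes, FastQC, TopHat2 2.0.11, featureCounts, DESeq2 and the build mm10 were used. No source used here gives the annotation, the strand setting or how multi-mapped reads were counted, so reads shared between related chains are uncertain. The authors deposited raw counts per gene and library, per the file headers. Their normalized signal is the count divided by 1 factor per library, as checked on the deposited values, and is the level given in the text. Their deposited log2 fold change, its linear fold and its p-value are the authors' own comparison, as is a test score deposited beside them, which was not used.

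Samples were grouped by title. Counts were tested with edgeR 4.0.16 in R 4.3.3 (TMM, filterByExpr, quasi-likelihood F-test, Benjamini-Hochberg at 0.05 over 13191 genes), without covariates, and with group and sex for the interaction. The standard error is the absolute log2 fold change divided by the square root of F. Chain ratios used raw counts and two-sided exact permutation of the mean log2 ratio over 210 splits, with adjustment over 8 ratios and 95% intervals from inverting that test. Positions and lengths came from GENCODE M21 (GRCm38). Levels per kilobase used the principal transcript, a choice made after the union of exons gave inflated values. The GC and length offsets and curves still used the union of exons, which for Col1a2 is 12426 bp beside 5348 bp. On simulated counts for 13191 genes, changes between the groups were recovered at 31.3% (1.5-fold), 70.1% (2-fold) and 95.5% (4-fold), and 4 of 135 calls were false. Promoter windows came from RefSeq (GRCm38.p6), where 6 of 9 chains matched by symbol.

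Members and lists were chosen with earlier results of these data known. Named genes are Tbx5, the 9 chains, up to 4 genes of each pathway list with the smallest adjusted p, up to 3 of each marker list with the highest level, and the 5 nearest profiles of Col1a1, Col3a1 and Col5a2 among genes with a mean of at least 50 normalized counts. Others are named after their values were seen, namely the falling genes of the pathway and fibroblast lists, list genes that passed the filter through 1 group, Mki67, Top2a, Ccna2, Fap, Myl7, Col9a1, 2 further fibroblast markers and genes held by 2 lists. The remaining activated fibroblast markers were also named after their values were seen. Same-numbered libraries did not deviate together over 4 pairs (r from -0.13 to 0.16), so the numbers do not pair them. Replicates differed by more than sampling noise (lowest chi-square per degree of freedom 4.11). Alternatives were RLE, upper-quartile and library-size scaling, DESeq2 1.42.0, limma-voom 3.58.1, other filters, sex or a replicate block as covariate, each library left out, control F1 and knockout M3 left out, 1 sex alone, and GC and length offsets. For the ratios they were 1 added to each count, normalized counts and medians, and, chosen after seeing the data, GC and length curves and leaving out knockout M1 and control F2 together.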

Additional observations from a re-analysis of the deposited data

Results flagged for a closer look

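Of 30 groups of 4 to 6 libraries checked for a single value far from the rest, 2 were found, and chance gives about 1 in 20. Both are ratios with Col1a1 in knockout M1. Col1a1 over Col1a2 was 0.558 in knockout M1, and the next highest knockout was M2 at 0.411. Col5a2 over Col1a1 was 0.804 in knockout M1, and the next lowest knockout was F3 at 1.14. Col1a1 was higher in this library (6691 normalized counts) than in any other. The part of GC content in either value was not tested, and genes of high GC content sat 0.16 above those of low GC content in this library and in control F2. Without knockout M1 and control F2 together, Col5a2 over Col1a1 differed by 0.79 between the groups (exact permutation, adjusted p = 0.0357).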

How the results depend on the processing

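The log2 fold changes of Col1a1, Col1a2, Col3a1, Col5a1 and Col5a2 kept their direction and call under all 23 alternatives, with ranges of 1.55 to 2.03, 1.59 to 1.94, 1.56 to 1.84, 1.74 to 2.04 and 2.36 to 2.71. Col5a3 did not pass in a fit of the male libraries without the female ones (0.51, edgeR adjusted p = 0.232). Col27a1 did not pass in 3 alternatives, of which that male fit gave 0.40 (edgeR adjusted p = 0.322). The 4 called ratios kept their direction in all alternatives and their call in all that were tested. Fits of males only held 2061 genes past the threshold, 1074 higher and 987 lower. Library-size scaling gave 1 lower gene of folding, 0 of fibril assembly, 0 of receptors and 0 of the 2 outside chains. Its median log2 fold change was 0.14 with 3942 genes higher and 2020 lower. Other scalings and tools left the counts of genes and of chains within 1.5 times.

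With GC and length curves, Col1a1 over Col1a2 was -0.22 and Col3a1 over Col1a1 0.13, both uncalled and of turned sign, and the cause was not tested. These curves took length from the union of exons. By sex, Col5a3 over Col5a1 was -0.66 (females) and -1.42 (males), and Col5a2 over Col3a1 0.61 and 1.08, with no test. Leaving out 1 library at a time gave -0.000603 to 0.15 for Col1a1 over Col1a2, -0.24 to 0.0120 for Col3a1 over Col1a1 and -0.0911 to 0.0413 for Col3a1 over Col1a2, all uncalled. It gave 1 to 3 lower genes of folding, 0 to 3 of assembly, 0 to 1 of receptors and 0 to 1 of the outside chains, and 4709 to 6085 genes past the threshold. The replicate block gave 5411 genes, 2599 higher and 2812 lower, and lost no call of a chain (Col5a2 2.67, Col5a3 1.00). For the ratios it gave -0.63 for Col5a1 over Col5a2. Depth limits Col2a1 and Col11a1, with 3 and 17 reads in all.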
